A study of Mus musculus with 9 samples.

Results

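The genes described here are 8 G protein-coupled receptors for lipids and metabolites, S1pr1, S1pr2, S1pr3, S1pr4, Gpr183, Cnr2, P2ry10 and Ffar2, each chosen by its name as 1 row of a table of 24459 rows. They were measured by RNA sequencing in 9 libraries of mouse splenic B cells, 3 libraries for each of 3 subsets. Follicular (FO) B cells were sorted as B220+ cells with intermediate IgM and CD21, positive for CD23, negative for CD93 and high for IgD. BDL, named for their low IgD, came from the same gate with low or no IgD, and marginal zone (MZ) B cells were high for IgM and CD21 and negative for CD23 and CD93. The mice were 8 to 10 weeks old and untreated, spleens of 5 mice were pooled for each sort, and the labels give C57/BL6 as the strain while the methods of the study name B10.PL. The labels carry 3 dates, each with 1 library of every subset, and libraries of 1 date have the same replicate number below.

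Receptors of this kind tell a B cell where to stay in the spleen. Sphingosine 1-phosphate (S1P) is abundant in blood and low inside lymphoid tissue, and B cells read that difference through S1P receptors. S1pr1 couples to Gi and draws cells toward blood-exposed sites such as the marginal zone, whereas S1pr2 couples to G12 and G13 and restrains migration. Gpr183, also called EBI2, reads oxidised cholesterol and positions cells at the outer edge of the follicle. Cnr2, the cannabinoid receptor CB2, helps to hold MZ B cells in their place, P2ry10 is a receptor for lysophosphatidylserine, and Ffar2 senses short-chain fatty acids such as acetate.

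Values are FPKM (fragments per kilobase of transcript, relative to all mapped fragments), which are scaled by transcript length and so allow levels to be compared between genes. Differences were fitted with limma on log2(FPKM + 0.1) and are called log2 differences here. A gene was called when its Benjamini-Hochberg adjusted p was under 0.05 and its fold change at least 2. Of the 8 receptors, 7 passed the minimum mean of 0.5 FPKM and were among the 11597 rows tested, and S1pr2 did not. Ffar2 passed it only through the MZ libraries, with means of 0.461 FPKM in FO and 0.477 FPKM in BDL. Its place among the receptors tested, and in the counts below, thus rests on the subset where it is high. The FO, BDL and MZ libraries each enter 2 comparisons, so the comparisons are not independent of each other. In sorted pools, fewer cells that express a gene and less RNA per cell cannot be told apart.

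Between MZ and FO B cells, 3 of the 7 receptors tested were called. S1pr3 and Ffar2 were higher in MZ B cells, where 5.54% of all genes tested were called higher, and S1pr4 was lower, where 3.39% were called lower. Against BDL, MZ B cells differed in the same receptors. S1pr4 was called higher in BDL, where 3.47% of all genes were, and S1pr3 and Ffar2 were called lower, where 4.34% were. Between BDL and FO B cells 0 receptors were called in either direction, and of all genes tested 1.64% were called higher and 0.267% lower in BDL. By limma's adjusted p alone, without the fold minimum, S1pr1 joined the receptors higher in MZ than in FO B cells (3 of 7, against 14.3% of all genes), while S1pr4 was still the 1 receptor lower (12.8% of all genes). By that rule S1pr3 was higher (6.04% of all genes) and Gpr183 lower (1.68%) in BDL than in FO B cells. Against MZ B cells, 4 receptors were then lower in BDL (S1pr1, S1pr3, Gpr183 and Ffar2, against 11.6% of all genes) and 1 was higher (S1pr4, against 16.5%).

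**Figure D1:**
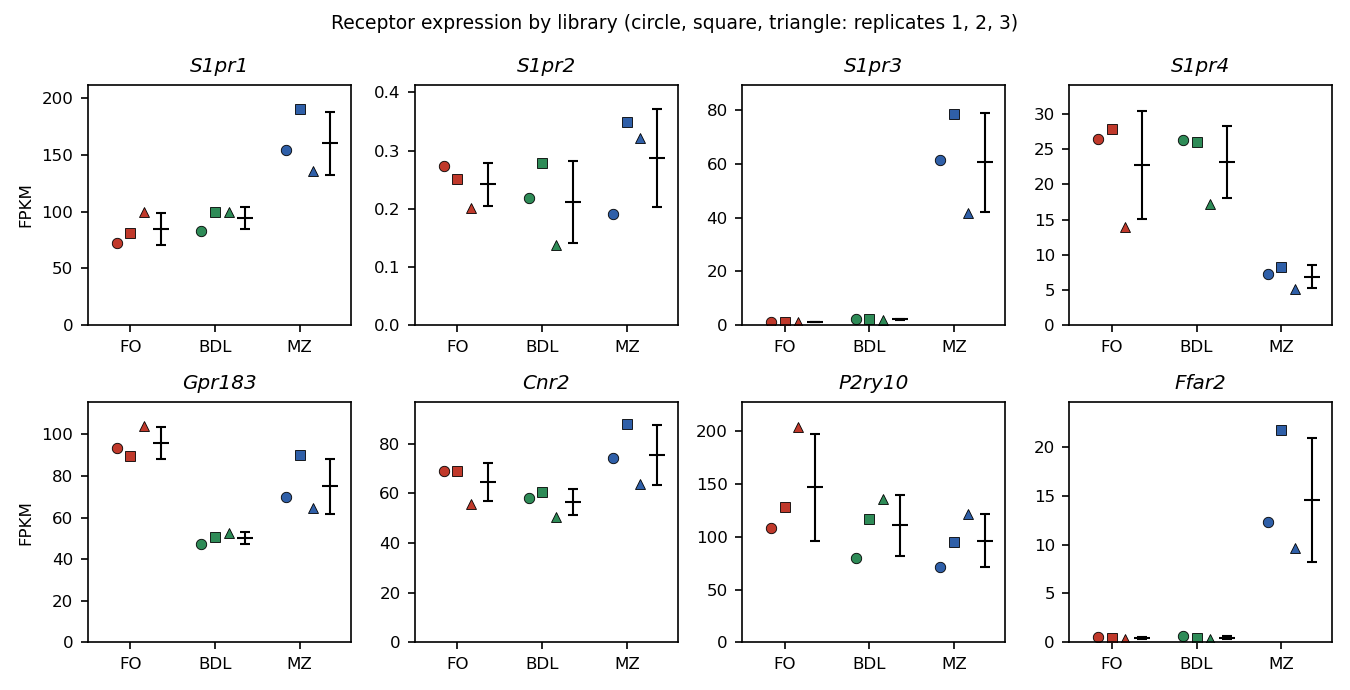
FPKM of each receptor in the 9 libraries, with a linear axis from 0 for each gene, symbols for replicates 1 to 3, and the mean and SD (n = 3) beside each subset. S1pr3 and Ffar2 stood near 0 in FO and BDL and at 41.6 to 78.5 and 9.69 to 21.7 FPKM in MZ B cells, S1pr4 was lowest in the MZ libraries, and Gpr183 was lowest in the BDL libraries.

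The sequences before the start sites of the 3 called receptors show where they are read from and which short motifs lie there. The promoter table of RefSeq on GRCm38.p6 holds 7 of the 8 receptors, and S1pr1 is not in it. Each window runs from 250 bases before a start site to 50 bases after it, and only the 250 bases before it are printed, 5′ to 3′ on the strand of the gene. The windows were searched on both strands for GTGGGAA (the RBPJ motif, bound by the factor that carries Notch signals), CCACCC (a motif of Krüppel-like factors) and GTAAACA (a FOXO motif), and capitals mark the matches. The printed bases of S1pr3 are chr13:51408368-51408617 on the plus strand, those of S1pr4 are chr10:81500138-81500387 on the minus strand, and those of the outermost of the 4 Ffar2 windows are chr7:30823776-30824025 on the minus strand.
S1pr3: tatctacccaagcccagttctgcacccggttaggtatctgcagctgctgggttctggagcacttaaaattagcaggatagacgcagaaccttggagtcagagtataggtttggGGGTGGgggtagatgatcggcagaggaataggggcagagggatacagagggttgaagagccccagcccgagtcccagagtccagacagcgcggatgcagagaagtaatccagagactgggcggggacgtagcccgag
S1pr4: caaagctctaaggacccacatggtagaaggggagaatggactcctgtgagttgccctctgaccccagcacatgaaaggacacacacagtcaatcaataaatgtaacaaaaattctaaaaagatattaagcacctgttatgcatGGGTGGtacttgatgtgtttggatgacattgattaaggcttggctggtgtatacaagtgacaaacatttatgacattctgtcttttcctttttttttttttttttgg
Ffar2: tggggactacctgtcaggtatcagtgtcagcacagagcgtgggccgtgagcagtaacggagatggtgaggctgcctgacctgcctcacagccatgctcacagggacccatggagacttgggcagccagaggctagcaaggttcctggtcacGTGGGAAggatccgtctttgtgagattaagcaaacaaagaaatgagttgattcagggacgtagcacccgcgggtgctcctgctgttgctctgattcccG
S1pr3 and S1pr4 each held 1 CCACCC match, read as GGGTGG on the printed strand, which began 137 and 107 bases before the start. The printed Ffar2 window held GTGGGAA 99 bases before the start, and a second match whose first base is the last printed base runs past the start. Of the 4 Ffar2 windows, 3 held GTGGGAA and 3 held CCACCC, and 2 of these windows overlap and share their matches. GTGGGAA occurs in 6.38% of all 32851 promoters of that length, CCACCC in 31.5% and GTAAACA in 3.65%. GTAAACA was in no window of the 7 receptors, and the windows of S1pr2, Gpr183, Cnr2 and P2ry10 held none of the 3 motifs.

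S1pr1 was the most abundant S1P receptor in every library. The gene lies on chromosome 3 (115413351 to 115417973, minus strand, NCBIM37, the build also called mm9). Its level was 72.8, 81.5 and 99.9 FPKM in FO replicates 1 to 3, 82.7, 99.6 and 100.04 FPKM in BDL, and 154.6, 190.3 and 135.7 FPKM in MZ B cells. All MZ libraries were above all FO and BDL libraries, which overlapped each other. BDL stood above FO on all 3 dates, but on the date of replicate 3 by a log2 difference of 0.00. The mean was 160.2 ± 27.7 FPKM (SD, n = 3) in MZ against 84.8 ± 13.9 FPKM (SD, n = 3) in FO B cells, a ratio of 1.89. The log2 difference of MZ over FO was 0.92 (95% interval 0.54 to 1.29, limma adjusted p = 0.00395), under the fold minimum. It passed that minimum without FO replicate 3, at 1.04, and without MZ replicate 3, at 1.03. On the date of replicate 3 the difference was 0.44, against 1.09 and 1.22 on the other dates. BDL over MZ stood at -0.76 (95% interval -1.13 to -0.38, limma adjusted p = 0.0102), and BDL over FO at 0.16 (95% interval -0.22 to 0.53, limma adjusted p = 0.575).

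S1pr3 showed the largest difference of the 8 receptors. It encodes an S1P receptor that couples to Gi, Gq and G13, and it lies on chromosome 13 (51503987 to 51518166, plus strand). It measured 1.16, 1.02 and 1.27 FPKM in FO, 2.25, 2.18 and 1.998 FPKM in BDL, and 61.5, 78.5 and 41.6 FPKM in MZ B cells. The 3 subsets did not overlap, and the order FO, BDL, MZ held on all 3 dates. The mean in MZ B cells, 60.5 ± 18.5 FPKM (SD, n = 3), was 52.7 times that in FO and 28.2 times that in BDL. The log2 difference of MZ over FO was 5.56 (95% interval 5.08 to 6.03, limma adjusted p = 1.05e-06), and that of BDL over MZ was -4.71 (95% interval -5.19 to -4.23, limma adjusted p = 3.41e-06). S1pr3 in BDL, at 2.14 ± 0.131 FPKM (SD, n = 3), was 1.86 times that in FO B cells, at 1.15 ± 0.129 FPKM (SD, n = 3). That log2 difference was 0.85 (95% interval 0.37 to 1.32, limma adjusted p = 0.0452). Over 20 alternative settings its adjusted p ran from 0.0127 to 0.152, and it was under 0.05 in 10 of them. It missed 0.05 when any 1 of the FO or BDL libraries was left out, from 0.0829 without BDL replicate 3 to 0.152 without FO replicate 2, and without MZ replicate 1, at 0.0779. With 1 FPKM added the log2 difference was 0.55 (limma adjusted p = 0.13). Without the minimum the adjusted p was 0.0661, or 0.0635 with the date as a block as well.

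S1pr4 ran the other way. It is an S1P receptor of blood cells with a single exon, on chromosome 10 (80961223 to 80962452, minus strand). FO libraries held 26.5, 27.8 and 13.98 FPKM, BDL libraries 26.4, 26.0 and 17.3 FPKM, and MZ libraries 7.27, 8.26 and 5.15 FPKM. Every MZ library was below every other library, FO and BDL overlapped, and replicate 3 was the lowest in each subset. The mean of 6.89 ± 1.59 FPKM (SD, n = 3) in MZ B cells compared with 22.8 ± 7.64 FPKM (SD, n = 3) in FO and 23.2 ± 5.14 FPKM (SD, n = 3) in BDL, so FO was 3.30 times and BDL 3.37 times the MZ level. MZ over FO was -1.67 on the log2 scale (95% interval -2.37 to -0.98, limma adjusted p = 0.00417). BDL over MZ was 1.74 (95% interval 1.04 to 2.43, limma adjusted p = 0.0037), and within the dates it stood at 1.84, 1.64 and 1.73. BDL and FO B cells could not be told apart in S1pr4, with a log2 difference of 0.07 (95% interval -0.63 to 0.76, limma adjusted p = 0.914).

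S1pr2, known as a marker of germinal centre B cells, was near the limit of these libraries. It lies on chromosome 9 (20770396 to 20781237, minus strand). It measured 0.273, 0.251 and 0.202 FPKM in FO, 0.219, 0.279 and 0.138 FPKM in BDL, and 0.190, 0.348 and 0.321 FPKM in MZ B cells, which stands for an estimated 24 to 59 fragments a library. The subsets overlapped, and their order differed on each date. Fitted without the minimum, the log2 difference was 0.16 for MZ over FO (95% interval -0.36 to 0.68), -0.15 for BDL over FO (95% interval -0.67 to 0.37) and -0.31 for BDL over MZ (95% interval -0.83 to 0.21). Two-sided exact permutation tests gave p = 0.6, 0.7 and 0.3, where 0.1 is the smallest p that 3 libraries against 3 allow. S1pr5, the remaining S1P receptor, was lower still, at 0.0376 ± 0.0115 FPKM in FO, 0.0528 ± 0.0140 FPKM in BDL and 0.0502 ± 0.0353 FPKM in MZ B cells (SD, n = 3 each).

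S1pr1 led the S1P receptor transcripts in each subset, and the receptor in second place was another in MZ B cells than in FO and BDL. Summed over S1pr1 to S1pr5, the FPKM were 109 ± 7.5 (SD, n = 3) in FO, 119.7 ± 8.23 (SD, n = 3) in BDL and 228 ± 47.4 (SD, n = 3) in MZ B cells. S1pr1 took 77.5% ± 7.88 of that sum in FO, 78.5% ± 4.84 in BDL and 70.7% ± 3.09 in MZ B cells (SD, n = 3 each). In MZ B cells S1pr3 held 26.2% ± 2.996 and S1pr4 3.02% ± 0.221, whereas in FO B cells S1pr4 held 21.2% ± 7.87 and S1pr3 1.06% ± 0.121. In BDL S1pr4 held 19.5% ± 4.64 and S1pr3 1.80% ± 0.192. These shares restate the levels above and were not tested on their own.

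**Figure D2:**
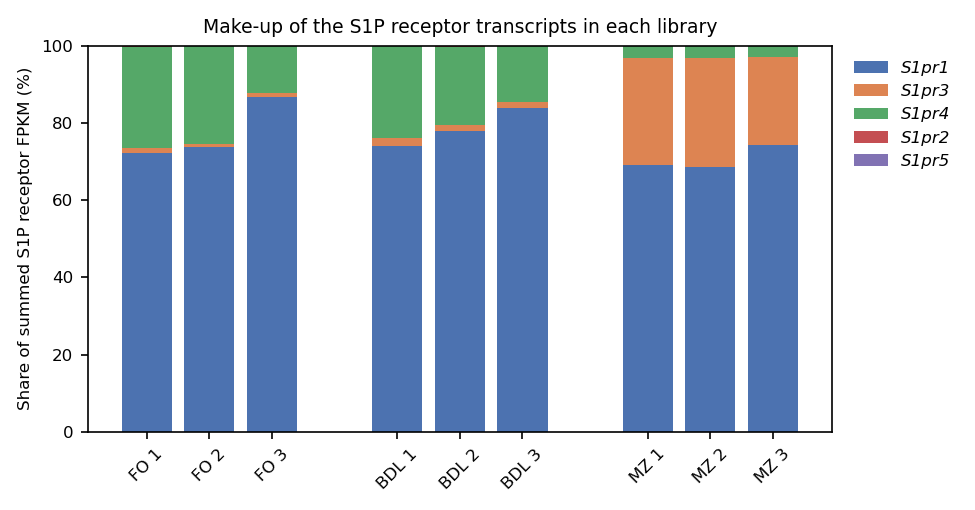
Share of the summed S1P receptor FPKM taken by each receptor, as a stacked bar for each library, in percent. In all 3 MZ bars S1pr3 (orange) fills 22.8% to 28.3% and S1pr4 (green) about 3%, while in the FO and BDL bars S1pr4 fills 12.1% to 26.3%, and S1pr2 and S1pr5 are too small to see.

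Gpr183 was lowest in BDL. The gene lies on chromosome 14 (122351553 to 122364415, minus strand), inside Ubac2 on the opposite strand, and 0 pairs of their annotated exons overlap. Its level was 93.6, 89.3 and 104.2 FPKM in FO, 47.1, 50.7 and 52.7 FPKM in BDL, and 70.0, 90.0 and 64.8 FPKM in MZ B cells. All BDL libraries were below all others, while FO and MZ overlapped through MZ replicate 2. The mean of 50.2 ± 2.86 FPKM (SD, n = 3) in BDL stood against 95.7 ± 7.67 FPKM (SD, n = 3) in FO and 74.9 ± 13.3 FPKM (SD, n = 3) in MZ B cells. The log2 difference of BDL over FO was -0.93 (95% interval -1.23 to -0.63, limma adjusted p = 0.0056), close to the fold minimum without reaching it, and it was -0.99, -0.82 and -0.98 within the dates. Its adjusted p was under 0.05 in all 20 alternatives, up to 0.0292. BDL over MZ was -0.56 (95% interval -0.87 to -0.26, limma adjusted p = 0.0142), and without BDL replicate 1 its adjusted p was 0.0502. MZ over FO was -0.36 (95% interval -0.67 to -0.06, limma adjusted p = 0.0757), and without MZ replicate 2 it was -0.50 with an adjusted p of 0.00983. Ubac2 itself measured 20.7 ± 0.129 FPKM in FO, 23.1 ± 2.32 FPKM in BDL and 26.1 ± 3.13 FPKM in MZ B cells (SD, n = 3 each), with a log2 difference of BDL over FO of 0.15 (limma adjusted p = 0.406). The labels call the libraries not strand specific and the methods name a stranded kit, so whether fragments of the 2 genes were told apart by strand is not known here.

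Cnr2 had a narrow range. It lies on chromosome 4 (135451309 to 135476122, plus strand). It measured 68.9, 69.1 and 55.7 FPKM in FO, 58.0, 60.6 and 50.4 FPKM in BDL, and 74.2, 87.8 and 63.7 FPKM in MZ B cells. BDL and MZ did not overlap, FO overlapped both, and on all 3 dates the order was BDL, FO, MZ from low to high. Means were 64.6 ± 7.69 FPKM in FO, 56.3 ± 5.26 FPKM in BDL and 75.2 ± 12.1 FPKM in MZ B cells (SD, n = 3 each). MZ over FO was 0.22 on the log2 scale (95% interval -0.12 to 0.55, limma adjusted p = 0.326), and BDL over FO was -0.19 (95% interval -0.53 to 0.14, limma adjusted p = 0.441). BDL over MZ was -0.41 (95% interval -0.74 to -0.08, limma adjusted p = 0.0683). With the date as a block that difference had an adjusted p of 0.00496, and it was also under 0.05 with upper quartile scaling, at 0.0104, and quantile normalization, at 0.0102. The block left MZ over FO at 0.0506.

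P2ry10 was the most abundant of the 8 receptors in FO and in 2 of 3 BDL libraries. It lies on the X chromosome (104283831 to 104300313, plus strand). It measured 108.2, 127.8 and 204.3 FPKM in FO, 79.6, 117.1 and 136.0 FPKM in BDL, and 71.6, 95.2 and 122.0 FPKM in MZ B cells. The subsets overlapped, but on all 3 dates FO was highest and MZ lowest, and replicate 1 was the lowest and replicate 3 the highest in each subset. The mean was 146.8 ± 50.7 FPKM in FO, 110.9 ± 28.7 FPKM in BDL and 96.3 ± 25.2 FPKM in MZ B cells (SD, n = 3 each). Without a term for the date, MZ over FO was -0.59 (95% interval -1.28 to 0.11, limma adjusted p = 0.198) and BDL over FO was -0.39 (95% interval -1.08 to 0.31, limma adjusted p = 0.464). With the date as a block, the same differences had intervals of -0.82 to -0.35 (limma adjusted p = 0.0047) and -0.62 to -0.15 (limma adjusted p = 0.0397). With the block and no minimum the adjusted p were 0.00714 and 0.0535, and over the 20 alternatives they were under 0.05 in 2 and in 1. BDL over MZ was 0.20 (95% interval -0.49 to 0.90, limma adjusted p = 0.663), and 0.144 was its adjusted p with the block. The difference was under the fold minimum in each fit.

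**Figure D3:**
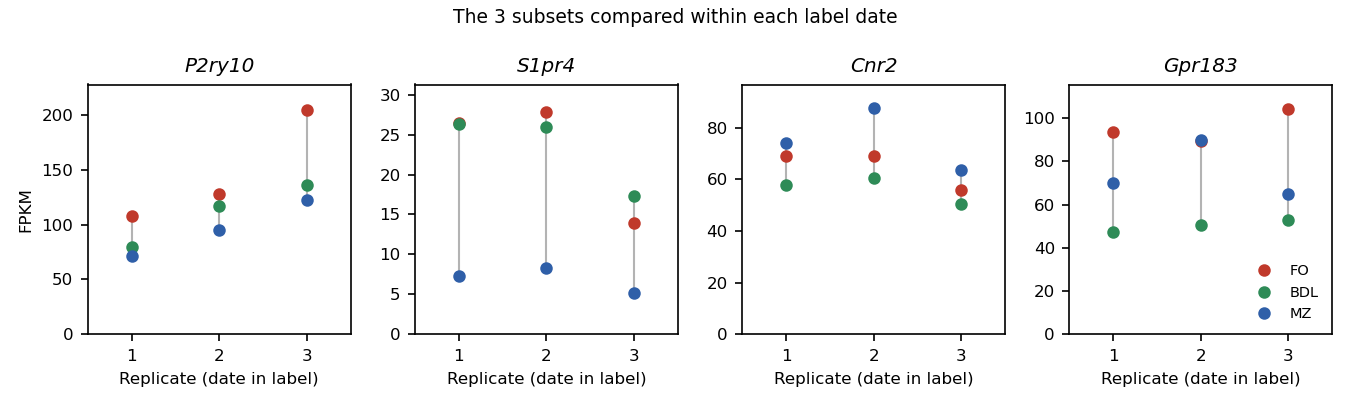
FPKM of P2ry10, S1pr4, Cnr2 and Gpr183 in the 3 subsets (red FO, green BDL, blue MZ), with the libraries of 1 date joined by a grey line and a linear axis from 0. P2ry10 is in the order FO, BDL, MZ from high to low on each date although replicate 3 of MZ, at 122.0 FPKM, is above replicate 1 of FO, at 108.2 FPKM.

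The position of a library among its own subset followed the date in several of these genes. Replicate 3 was the lowest of each subset in S1pr4, Cnr2 and Ffar2, as it was in 16.2% of all genes tested. Replicate 1 was the lowest in P2ry10 (11.5% of all genes) and replicate 3 the highest (7.77%), and replicate 2 was the highest in Cnr2 (21% of all genes). What the dates stand for beyond the labels, and their part in these values, was not tested.

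Ffar2 was low in FO and BDL and higher in MZ B cells. It lies on chromosome 7 (31603376 to 31608794, minus strand). It measured 0.559, 0.473 and 0.351 FPKM in FO, 0.619, 0.486 and 0.328 FPKM in BDL, and 12.3, 21.7 and 9.69 FPKM in MZ B cells. The lowest MZ library was far above the highest of the others, and FO and BDL overlapped. The MZ mean of 14.6 ± 6.31 FPKM (SD, n = 3) was 31.6 times the FO mean of 0.461 ± 0.104 FPKM (SD, n = 3) and 30.5 times the BDL mean of 0.477 ± 0.146 FPKM (SD, n = 3). MZ over FO was 4.64 on the log2 scale (95% interval 3.91 to 5.37, limma adjusted p = 2.15e-05), and BDL over MZ was -4.61 (95% interval -5.34 to -3.89, limma adjusted p = 2.77e-05). BDL over FO was 0.03 (95% interval -0.70 to 0.76, limma adjusted p = 0.969). The FO and BDL values stand for an estimated 46 to 81 fragments a library, and adding 0.1 FPKM before the log makes these log2 differences smaller than the ratios of the means.

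The fatty acid receptors next to Ffar2 were lower in MZ than FO libraries. Ffar1, a receptor for long-chain fatty acids on the same chromosome (31645587 to 31646489), fell from 44.9 ± 6.78 FPKM (SD, n = 3) in FO to 20.4 ± 1.7 FPKM (SD, n = 3) in the MZ libraries, with a log2 difference of -1.13 (limma adjusted p = 0.00151). BDL were between, at 27.4 ± 5.47 FPKM (SD, n = 3), with a log2 difference from FO of -0.72 (limma adjusted p = 0.0385). Ffar3, which like Ffar2 senses short-chain fatty acids and lies 30555 nt from it, was under the minimum, at 0.826 ± 0.199 FPKM in FO, 0.297 ± 0.0189 FPKM in BDL and 0.173 ± 0.0611 FPKM in MZ B cells (SD, n = 3 each). Without the minimum its log2 difference of MZ over FO was -1.76 (limma adjusted p = 0.00069) and that of BDL over FO -1.20 (limma adjusted p = 0.0162).

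**Figure D4:**
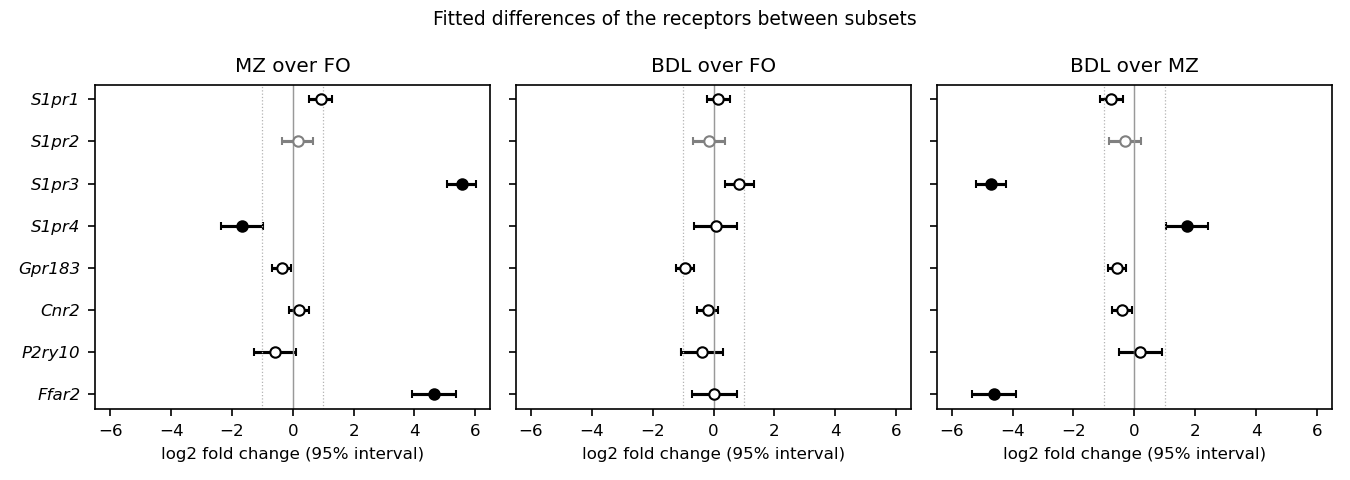
Log2 differences of the 8 receptors with 95% intervals for MZ over FO, BDL over FO and BDL over MZ, from the limma fit on log2(FPKM + 0.1), with filled points for called genes, dotted lines at a fold change of 2 and S1pr2 in grey from the fit without the minimum. In the middle panel no point is filled, and S1pr3, at 0.85, and Gpr183, at -0.93, are farthest from 0.

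Neighbours of the other receptors were compared in the same fit. The nearest gene to S1pr4, Ncln at 2086 nt, measured 31.1 ± 3.89 FPKM in FO, 27.85 ± 8.95 FPKM in BDL and 20.3 ± 1.09 FPKM in MZ B cells (SD, n = 3 each), with -0.61 for MZ over FO (limma adjusted p = 0.0915). On its other side, Gna15, which encodes a G protein alpha subunit and lies 2599 nt from S1pr4, likewise had its lower level in the MZ libraries, at 1.59 ± 0.196 against 5.06 ± 0.323 FPKM in FO (SD, n = 3 each), a log2 difference of -1.62 (limma adjusted p = 2.41e-05). In BDL Gna15 stood at 2.93 ± 0.234 FPKM (SD, n = 3), and its log2 difference of BDL over FO was -0.77 (limma adjusted p = 0.00663). On the X chromosome, P2ry10 is followed by A630033H20Rik, a gene of the same family 43953 nt away, and by Gpr174, another receptor for lysophosphatidylserine. A630033H20Rik measured 12.5 ± 1.42 FPKM in FO, 11.4 ± 2.04 FPKM in BDL and 7.79 ± 1.499 FPKM in MZ B cells (SD, n = 3 each), with a log2 difference of MZ over FO of -0.69 (limma adjusted p = 0.0195). Gpr174 measured 28.7 ± 1.98, 21.9 ± 3.72 and 15.6 ± 2.01 FPKM (SD, n = 3 each), with -0.88 for MZ over FO (limma adjusted p = 0.0022). Neither reached the fold minimum. Gpr18, a lipid receptor 36557 nt from Gpr183, measured 55.5 ± 5.95 FPKM in FO, 44.6 ± 6.23 FPKM in BDL and 52.6 ± 7.70 FPKM in MZ B cells (SD, n = 3 each), with adjusted p-values of 0.226 and more in the 3 comparisons. A930005H10Rik, 172767 nt from S1pr1, measured 8.90 ± 0.912 FPKM in FO, 12.1 ± 1.63 FPKM in BDL and 44.6 ± 2.59 FPKM in MZ B cells (SD, n = 3 each), and was called higher in MZ than in FO B cells, at 2.32 (limma adjusted p = 5.44e-06).

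Other receptors for lipids and metabolites formed a list of 36 genes, of which 15 were tested. Ptafr and Gpr55 passed the minimum only through the MZ libraries, and Ffar3, highest in FO, did not pass it, so the counts and medians of the list depend on that minimum. Of all genes tested, 5.54% were called higher and 3.39% lower in MZ against FO, 1.64% higher and 0.267% lower in BDL against FO, and 3.47% higher and 4.34% lower in BDL against MZ B cells, which are the shares beside which the counts of this and the next lists stand. Between MZ and FO B cells 5 were called higher and 1 lower, with a median log2 difference of 0.36, where the median over all genes was -0.01. The receptors called higher were Ptafr, Gpr55, Gpr34, Ptger4 and Lpar6, and the receptor called lower was Ffar1. Ptafr, the receptor for platelet-activating factor, measured 3.12, 4.28 and 3.52 FPKM in MZ and at most 0.140 FPKM in any other library, a log2 difference of MZ over FO of 4.52 (limma adjusted p = 1.48e-05). Gpr55, a receptor for lysophosphatidylinositol, was the 1 gene of the list called between BDL and FO, at 0.188 ± 0.0624 FPKM in FO, 0.610 ± 0.108 FPKM in BDL and 2.61 ± 0.489 FPKM in MZ B cells (SD, n = 3 each). Its log2 difference was 1.31 for BDL over FO (limma adjusted p = 0.0142) and 3.24 for MZ over FO (limma adjusted p = 2.63e-05). Gpr34, like Gpr174 a receptor for lysophosphatidylserine, was higher in MZ than in FO B cells by 2.36 on the log2 scale (limma adjusted p = 3.36e-05), at 4.33 ± 0.949 against 0.758 ± 0.126 FPKM (SD, n = 3 each). Ptger4, a receptor for prostaglandin E2, stood at 27.1 ± 5.33 FPKM in MZ and 9.01 ± 0.765 FPKM in FO B cells (SD, n = 3 each), and Lpar6, a receptor for lysophosphatidic acid, at 8.61 ± 1.17 and 3.69 ± 0.194 FPKM (SD, n = 3 each). In BDL against MZ B cells 6 genes of the list were called lower and 0 higher, with a median of -0.31 beside 0.06 over all genes. Among them were Ptafr, at -4.08 (limma adjusted p = 2.99e-05), Gpr55, at -1.93 (limma adjusted p = 0.000517), and Gpr34, Ptger4 and Lpar6.

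Of 14 genes that make, break down or move S1P, 12 were tested. Between MZ and FO B cells 1 was called higher and 2 lower, between BDL and FO B cells 0 in either direction, and between BDL and MZ B cells 2 higher and 2 lower. Spns2, a transporter that exports S1P, measured 18.8, 22.1 and 21.4 FPKM in FO, 14.8, 15.99 and 17.1 FPKM in BDL, and 5.78, 7.18 and 6.84 FPKM in MZ B cells. The subsets did not overlap, and its log2 difference was -1.64 for MZ over FO (limma adjusted p = 1.81e-05) and 1.26 for BDL over MZ (limma adjusted p = 7.77e-05). A pair of lipid phosphatases that act on S1P outside the cell moved in opposite directions. Ppap2b was higher in MZ than in FO B cells by 1.44 on the log2 scale (limma adjusted p = 0.000161), at 10.4 ± 2.16 against 3.73 ± 0.27 FPKM (SD, n = 3 each). Ppap2c was lower by -1.06 (limma adjusted p = 0.00019), at 0.816 ± 0.0927 against 1.80 ± 0.0431 FPKM (SD, n = 3 each). Asah2, a ceramidase, was called lower in BDL than in MZ B cells, at -1.02 (limma adjusted p = 0.000336). Sgpl1, the lyase that degrades S1P, was at 21.4 ± 1.13 FPKM in FO, 25.5 ± 4.06 FPKM in BDL and 24.6 ± 3.91 FPKM in MZ B cells (SD, n = 3 each), with adjusted p-values of 0.342 and more. Sphk1, a kinase that makes S1P, is listed at 0 in 5 of 9 libraries and reached 0.0247 FPKM.

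Of 5 genes of oxysterol synthesis and breakdown, some of which make or degrade the ligand of Gpr183, Cyp27a1 and Hsd3b7 were the 2 tested. In any comparison 0 were called, with 0 also by adjusted p alone. Cyp27a1 measured 13.95 ± 1.83 FPKM in FO, 5.70 ± 2.94 FPKM in BDL and 7.67 ± 2.63 FPKM in MZ B cells (SD, n = 3 each). Its log2 difference of BDL over FO was -1.44 (limma adjusted p = 0.0931). Ch25h, which starts the synthesis, is listed at 0 in 6 of 9 libraries and reached 0.0431 FPKM, and Cyp7b1, which completes the ligand, is listed at 0 in all 9. Hsd3b7, which degrades it, measured 1.23 ± 0.158 FPKM in FO, 0.881 ± 0.381 FPKM in BDL and 0.653 ± 0.0886 FPKM in MZ B cells (SD, n = 3 each), with a log2 difference of MZ over FO of -0.82 (limma adjusted p = 0.0831). Of 9 genes of endocannabinoid and lysophosphatidylserine metabolism, 6 were tested, and 1 was called in 1 comparison. Abhd6, a lipase that degrades the endocannabinoid 2-arachidonoylglycerol, was higher in MZ than in FO B cells by 1.09 (limma adjusted p = 8.84e-05), at 6.05 ± 0.319 against 2.81 ± 0.316 FPKM (SD, n = 3 each).

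Of 22 genes for G proteins, receptor kinases, arrestins and coupling factors, 21 were tested. Between MZ and FO B cells 3 were called higher and 1 lower, between BDL and FO B cells 0, and between BDL and MZ B cells 2 lower. Adrbk2 encodes GRK3, a kinase that phosphorylates active receptors, and measured 17.0, 20.01 and 22.3 FPKM in MZ against 1.25, 1.91 and 1.78 FPKM in FO and 1.12, 0.901 and 1.57 FPKM in BDL. Its log2 difference was 3.52 for MZ over FO (limma adjusted p = 1.41e-05) and -3.96 for BDL over MZ (limma adjusted p = 1.01e-05). Grk5, another such kinase, was higher in MZ than in FO B cells by 1.58 (limma adjusted p = 0.000188), and Arhgef12, an exchange factor that acts after G12 and G13, by 1.21 (limma adjusted p = 2.81e-05). Gna15 was the gene called lower. The G proteins that S1pr1 and S1pr2 mainly use were not called. Gnai2 measured 243 ± 9.08 FPKM in FO, 260 ± 49.7 FPKM in BDL and 163 ± 28.9 FPKM in MZ B cells (SD, n = 3 each), with -0.59 for MZ over FO (limma adjusted p = 0.0307). For Gna13 and for Arhgef1, which acts after it, MZ over FO was -0.44 (limma adjusted p = 0.184) and -0.54 (limma adjusted p = 0.0901).

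Of 4 genes known to regulate S1pr1 or B cell position with it, 2 were called lower in the MZ libraries relative to FO, and 1 was called higher in BDL than in MZ B cells. Klf2, a factor that activates S1pr1 in lymphocytes, measured 439 ± 35.99 FPKM in FO, 330 ± 27.6 FPKM in BDL and 219 ± 36.3 FPKM in MZ B cells (SD, n = 3 each), with a log2 difference of MZ over FO of -1.02 (limma adjusted p = 0.00115). For BDL over FO the Klf2 difference was -0.41 (limma adjusted p = 0.122). S1pr1 was higher in MZ than in FO B cells by 0.92 (limma adjusted p = 0.00395), under the fold minimum. The part of Klf2 in the S1pr1 values was not tested. Ccr7, the chemokine receptor of the T cell zone, was at 275 ± 41.2 FPKM in FO, 302 ± 64.4 FPKM in BDL and 82.3 ± 23.2 FPKM in MZ B cells (SD, n = 3 each), with -1.77 for MZ over FO (limma adjusted p = 0.000673) and 1.89 for BDL over MZ (limma adjusted p = 0.000514). Cd69, which removes S1pr1 from the cell surface, had a log2 difference of MZ over FO of 0.13 (limma adjusted p = 0.565). Foxo1, the remaining gene, measured 49.6 ± 3.15 FPKM in FO, 64.0 ± 13.97 FPKM in BDL and 35.2 ± 6.03 FPKM in MZ B cells (SD, n = 3 each). It was not called, at -0.51 for MZ over FO (limma adjusted p = 0.0615) and 0.85 for BDL over MZ (limma adjusted p = 0.00722).

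**Figure D5:**
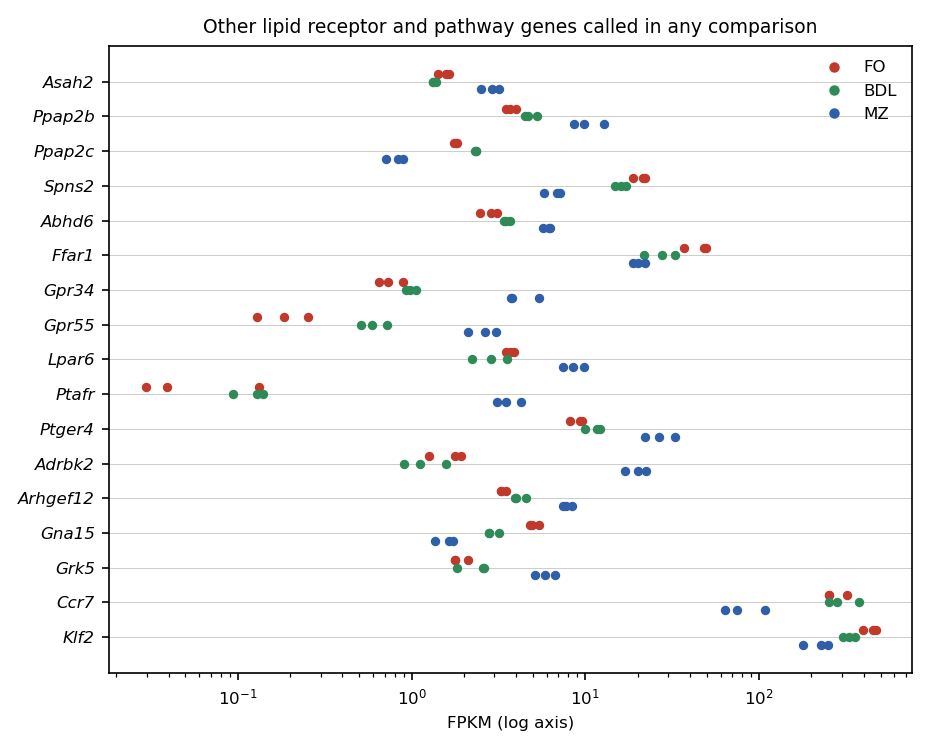
FPKM on a log axis of 17 genes from the lists of S1P metabolism, endocannabinoid metabolism, other lipid receptors, G proteins and S1pr1 regulators that were called in any comparison, with 1 point for each library (red FO, green BDL, blue MZ). Ptafr, Gpr55 and Adrbk2 have MZ points (blue) far to the right of the others, and Spns2, Gna15, Ccr7 and Klf2 have them to the left.

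The genes whose profile over the 9 libraries was closest to that of a called receptor were found by the root mean square difference of centred log2 values. For S1pr3 these were Serpine2, Tbc1d9 and Myof, at 0.25, 0.36 and 0.36. For Ffar2 they were Srgap3, Ms4a7 and Zfp532, at 0.31, 0.33 and 0.35, and for S1pr4 they were AI467606, B3gnt8 and Sorl1, at 0.14, 0.20 and 0.25. Myof measured 1.65 ± 0.144 FPKM in FO, 4.17 ± 0.0626 FPKM in BDL and 64.6 ± 11.1 FPKM in MZ B cells (SD, n = 3 each). Over the 3 subset means alone, 1 of the 3 genes for S1pr3 and 0 of those for Ffar2 and S1pr4 were found again.

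The subsets carried the markers of their gates. The B cell markers summed to 3226 to 4506 FPKM, and Fcer2a, which encodes CD23, stood at 496 ± 45.1 FPKM in FO, 427 ± 44.1 FPKM in BDL and 29.6 ± 4.34 FPKM in MZ B cells (SD, n = 3 each). Of 5 MZ markers, 4 were called higher in MZ than in FO B cells, and 1, Cd9, was called higher in BDL than in FO B cells. Cd9 measured 1.98 ± 0.235 FPKM in FO, 7.32 ± 0.394 FPKM in BDL and 73.8 ± 7.58 FPKM in MZ B cells (SD, n = 3 each). Its log2 difference of BDL over FO was 1.84 (limma adjusted p = 0.000136). For Cr2, Cd1d1, Dtx1 and Notch2 it was -0.40, 0.30, -0.04 and -0.44, with limma adjusted p-values of 0.0566 and more. The gene for IgD, which separates BDL from FO B cells, has 0 rows under its symbol Ighd and so was not analysed here. Ffar2 is also a gene of neutrophils, and the summed neutrophil and myeloid markers (10 of 11 in the table) ranged over 3.70 to 10.7 FPKM in FO, 6.95 to 13.8 FPKM in BDL and 5.05 to 13.02 FPKM in MZ libraries. Of the 6 tested, Itgam alone was called between MZ and FO B cells, higher in MZ at 1.10 (limma adjusted p = 0.00198). Csf3r, Lyz2, S100a8, S100a9 and Emr1 stood at 0.12, 0.29, 0.60, -0.62 and -0.20, with limma adjusted p-values of 0.474 and more. The part of these markers in the Ffar2 values was not tested. S1pr1 and S1pr3 are also genes of endothelium. Of 8 endothelial and stromal markers, Emcn and Pdgfra are listed at 0 in all 9 libraries. The endothelial genes Kdr and Tek reached at most 0.0144 and 0.0255 FPKM. The sum of the 8 was 63.8 to 75.3 FPKM in FO, 65.1 to 72.3 FPKM in BDL and 43.4 to 52.0 FPKM in MZ libraries, most of it from Pecam1, which B cells also express. Cdh5 was at 0.227 ± 0.0218 FPKM in FO, 0.350 ± 0.0416 FPKM in BDL and 0.798 ± 0.119 FPKM in MZ B cells (SD, n = 3 each), and its part in the S1pr3 values was not tested. T cell markers summed to 19.6 to 24.8 FPKM in BDL, above 10.5 to 12.1 FPKM in FO and 8.30 to 14.4 FPKM in MZ libraries. Most of that sum was Lck, at 20.3 ± 2.28 FPKM in BDL, 9.06 ± 0.576 FPKM in FO and 9.04 ± 2.18 FPKM in MZ B cells (SD, n = 3 each), whereas Cd3d, Cd3e and Cd4 were under 1 FPKM in every library. Of the other markers, Rgs13, known from germinal centre B cells, stood at 4.64 ± 1.54 FPKM in BDL and 0.220 ± 0.0480 FPKM in FO B cells (SD, n = 3 each), a log2 difference of 3.85 (limma adjusted p = 0.000644). Sdc1, known from plasma cells, Emr1, known from macrophages, and Hbb-b1, a haemoglobin gene of red cells, were likewise called higher in BDL than in FO B cells, at 2.42, 1.99 and 1.94 on the log2 scale (limma adjusted p = 0.00147, 0.000822 and 0.00542). The part of these markers and of Cd9 in the BDL values, those of Gpr183 and S1pr3 included, was not tested.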

How the data were processed

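Reads from 9 libraries were aligned by the authors to mouse genome mm9 with TopHat 2.1.0, and per the labels Cufflinks gave the deposited FPKM, 1 value per gene and library. The Cufflinks version and the annotation are not given in the sources used here. A second deposited table holds the authors' Cuffdiff comparisons and was not used. The FPKM were used without further scaling and sum to 446033 to 517208 a library. No counts were used. From the steps between low values, 1 fragment on a 1 kb transcript is about 0.0138 to 0.0183 FPKM, with 69.8% to 76.2% of the low values within 0.1 of a whole number, so fragment numbers are estimates. Of the gene symbols, 271 occur on 776 rows, 0 of them those of the 8 receptors.

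The 11597 of 24459 rows whose mean over all libraries reached 0.5 FPKM were fitted as log2(FPKM + 0.1) with limma 3.58.1 in R 4.3.3, with the subset as the only term, a trended prior and Benjamini-Hochberg adjustment over all rows tested. The fit was tested on simulated data. Exact permutation tests were two-sided (scipy 1.17.1 in Python 3.11.15). Per the series' design text each subset was sorted on 3 independent occasions, and whether the subsets of 1 date came from the same 5 mice is not stated. Libraries of 1 date share a replicate number, and the date was tried as a block. The correlation of same-date deviations over genes was 0.024, 0.014 and 0.008 for MZ and FO, 0.147, 0.049 and -0.062 for BDL and FO, and 0.100, 0.244 and 0.182 for BDL and MZ libraries. Positions come from GENCODE M1 (NCBIM37), where 87.3% of the symbols were found, and promoters from RefSeq on GRCm38.p6.

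The members and lists were chosen with earlier results of these data known. Named are the 8 receptors, every gene of the pathway lists called in any comparison, a fixed set of ligand and signalling genes, and the 3 nearest profiles of each called receptor. A gene that meets this rule is not reported here. Neighbouring genes, single marker genes, Cyp27a1 and Foxo1 were chosen after their values were seen. The alternatives were 0.01 or 1 FPKM added, no minimum or one of 1 FPKM, the date as a block, upper quartile or quantile scaling, robust eBayes, the 6 libraries compared alone, repeated symbols summed, no fold minimum, and each library left out. No minimum together with the block was chosen after seeing the data.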

Additional observations from a re-analysis of the deposited data

How the results depend on the processing

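Over the alternatives, the log2 differences of the receptors kept their direction and their side of the threshold in 429 results and turned in 8. In 2 more, S1pr1 for MZ over FO reached the fold minimum, and the last 5 were called because the fold minimum was removed. In each of these fits S1pr3 and Ffar2 were called higher and S1pr4 lower in MZ B cells, against FO and against BDL. The direction turned for BDL over FO in S1pr4 (-0.01 with quantile normalization and from -0.25 to 0.26 over the libraries left out) and in Ffar2 (-0.02 with upper quartile scaling, -0.13 with quantile normalization and from -0.15 to 0.23 over the libraries left out), both near 0. With the date as a replicate block no receptor gained or lost a call at a fold change of 2, and the genes called lower in BDL than in FO B cells were 49 in place of 31, or 57 with the block and no minimum. With the block and no minimum, 971 genes in place of 642 were called higher in MZ than in FO B cells. With 1 FPKM added, 406 genes were called higher in MZ than in FO B cells, 78 higher and 16 in place of 31 lower in BDL than in FO B cells, and 267 higher in BDL than in MZ B cells. The 6 libraries alone gave 17 lower in BDL than in FO B cells, and leaving out 1 library gave 15 to 31. Without a fold minimum the counts were 1658 higher and 1483 lower in MZ relative to FO B cells, 701 higher and 195 lower in BDL than in FO B cells, and 1909 higher and 1346 lower in BDL than in MZ B cells, and the receptors called were then 1 higher and 1 lower in BDL than in FO B cells and 4 lower in BDL than in MZ B cells. Upper quartile scaling moved the median of all genes for BDL over MZ from 0.057 to -0.049. The values of S1pr2, S1pr5, Sphk1 and Ch25h rest on few fragments. The causes of these changes were not tested.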
